A study of Mus musculus with 2 samples.

Results

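Integrins are surface receptors built from an alpha and a beta chain, and with CD44 and ICAM-1 they hold lymphocytes to other cells and to matrix. The genes followed here are 9 members of this group: the integrin chains Itga4, Itgb1, Itgb7, Itgal, Itgb2, Itgam and Itgax, the hyaluronan receptor gene Cd44 and the integrin ligand gene Icam1. They were chosen by name, 9 of the 18193 genes that the array names singly. Every probe set (a group of short probes read together as 1 value) that the platform annotation assigns to just one of these genes was used, which gave 22 of the 45101 probe sets.

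The study compared B cells of miR-155 knockout mice with B cells of wild-type mice, both cultured and activated, with 1 Affymetrix array for each. One array is titled and annotated mir155 KO, and the other mir155 WT. The source names say the reverse for both arrays, so the arrays are called by their title, as labelled knockout and labelled wild-type, and every sign below would turn if the source names are right. All mice were male, on a C57 background from Jackson Laboratory, and both cultures received cycloheximide, which blocks translation elongation, at 100 ug/ml for 8 min immediately before harvest. The growth protocol speaks of haematopoietic progenitors kept for 6 days with G-CSF and stem cell factor, in place of activated B cells, and the labels used here give neither the age of the mice nor the activating stimulus.

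The targeted transcript was read first. Mir155hg, the host transcript of miR-155, had a log2 intensity of 10.88 on the knockout-labelled array and 6.63 on the wild-type-labelled array, so it went against the genotype labels. All differences below are the log2 intensity on the knockout-labelled array minus that on the wild-type-labelled array. With 1 array per label, the spread between animals or cultures is unknown, no difference could be tested, and each value is described by its size. A gene counted as expressed where its mean over both arrays reached 6.71, the median over every probe set other than the array controls, and 10717 genes did. As a yardstick within the arrays, the 2 strongest expressed probe sets of a gene gave differences that lay a median of 0.08 apart, and 0.31 apart at the 95th percentile of 4906 genes. The yardstick of 0.31 named below is this 95th percentile. It measures disagreement between probe sets on the same 2 arrays and not the spread between arrays or cultures. A size within it is therefore not shown to be noise.

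The mature microRNA is shown because it is the product that the knockout removes. It is credited to RefSeq (GRCm38.p6, chr16:84714143-84714165, plus strand), and capitals mark the seed, bases 2 to 8, with which a microRNA pairs to its targets. Sites for it in the members' transcripts were not searched here.
mmu-miR-155-5p: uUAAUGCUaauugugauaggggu

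Integrin chains pair into receptors with different partners. Itgal and Itgb2 encode LFA-1, the main leukocyte integrin for ICAM ligands. Itga4 pairs with Itgb1 as VLA-4, which binds VCAM-1 and fibronectin, or with Itgb7 as the receptor for the gut addressin MAdCAM-1. Itgam and Itgax pair with Itgb2 as Mac-1 and p150,95, which are best known from myeloid and dendritic cells. In B cells LFA-1 and VLA-4 are known for keeping cells in the marginal zone and for contacts in germinal centres.

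The integrin and adhesion genes were nearly level between the arrays. Of the 9 members 7 were expressed, 2 of them higher and 5 lower on the knockout-labelled array. Their differences ran from -0.19 for Itgb7 to 0.29 for Itgb2, with a median of -0.06, against a median of 0.03 over all expressed genes. By direction, 56.9% of all expressed genes were higher on the knockout-labelled array and 42.1% were lower. None of the 7 was higher by 0.5 or more, a size that 0.681% of expressed genes reached, and none was lower by 0.5 or more, a size that 1.31% reached. With counts this small in the background, 0 of 7 is near the share of all genes. Over all expressed genes 73 were higher and 140 lower at this size, and 52 and 167 after quantile normalization.

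**Figure D1:**
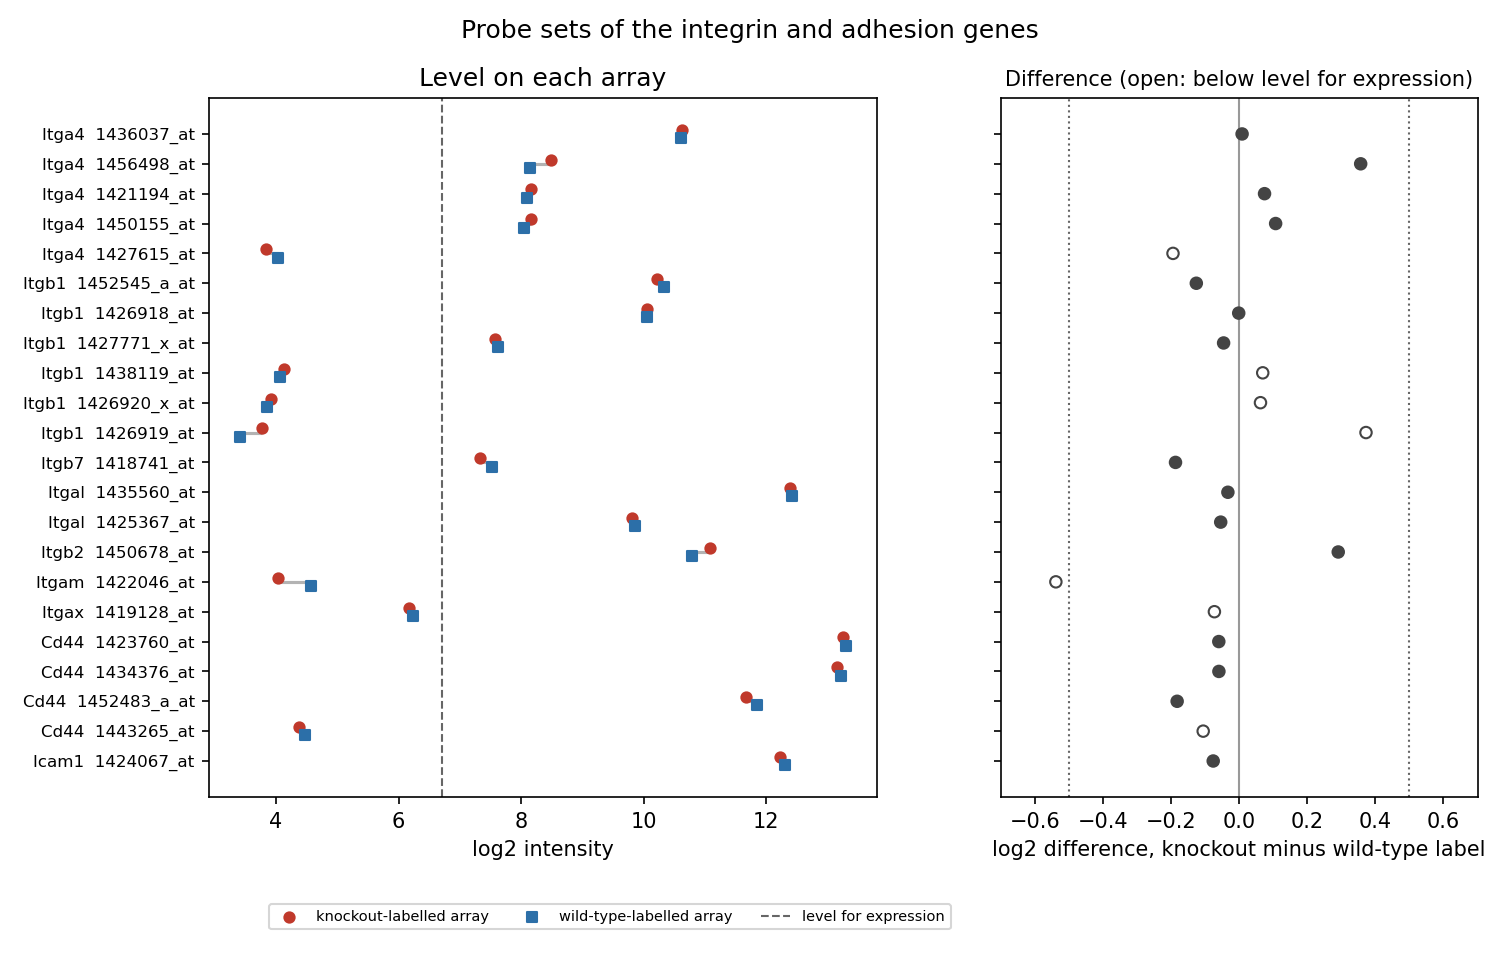
Levels (left, log2 intensity) and differences (right, log2, knockout-labelled array minus wild-type-labelled array) of the 22 probe sets of the 9 members, 1 row each. Circles on the left are the knockout-labelled array and squares the wild-type-labelled array, the dashed line is the level for expression of 6.71, the dotted lines mark differences of 0.5 either way, and open points on the right lie below the level for expression. The 15 expressed probe sets all lie between the dotted lines.

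Itgb2, the common beta chain of the leukocyte integrins (CD18), had the largest difference among the expressed members. Its single probe set, 1450678_at, read 11.09 on the knockout-labelled array and 10.79 on the wild-type-labelled array. The knockout-labelled array was thus higher by 0.29, or 1.22-fold. Of all expressed genes 5.15% were at least as high. The difference was 0.27 after quantile normalization and 0.25 after a loess curve was subtracted, and with a single probe set it has no second reading. The size lay above the median gap of 0.08 between probe sets and within the yardstick of 0.31, which does not measure the spread between arrays.

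Itgal, the alpha chain CD11a that joins Itgb2 in LFA-1, was nearly level between the arrays. Its stronger probe set, 1435560_at, read 12.38 on the knockout-labelled array and 12.41 on the wild-type-labelled array. The weaker, 1425367_at, read 9.80 on the knockout-labelled array and 9.86 on the wild-type-labelled array. The differences of -0.03 and -0.05 were closer to each other than the usual gap between probe sets of one gene. The difference of Itgb2 exceeded that of Itgal by 0.32, which was not tested.

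Itgam and Itgax, the alpha chains CD11b and CD11c, were below the level for expression on both arrays. The only probe set of Itgam, 1422046_at, read 4.03 on the knockout-labelled array and 4.57 on the wild-type-labelled array. That is a difference of -0.54, the only one among the members beyond 0.5, between values that are both far under the level for expression, so no fold is given. It was -0.49 after quantile normalization and also after a loess curve was subtracted. The only probe set of Itgax, 1419128_at, read 6.17 on the knockout-labelled array and 6.24 on the wild-type-labelled array, a difference of -0.07. Both readings lay somewhat below the level for expression, and such a reading bounds the level rather than measuring it.

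The RNA of cells of other types bears on these chains, because CD11b and CD11c mark myeloid and dendritic cells. Of 11 listed macrophage and monocyte markers 10 were measured and 8 expressed, 2 higher and 6 lower on the knockout-labelled array, with a median difference of -0.22. The summed linear intensity of all 10 measured markers was 1685 on the knockout-labelled array and 1941 on the wild-type-labelled array. The macrophage receptor gene Mertk and the complement gene C1qa were below the level for expression. Of 8 listed dendritic cell markers 7 were measured and 4 expressed, 1 higher and 3 lower, with a median of -0.29. The sums over all 7 measured were 5622 on the knockout-labelled array and 6813 on the wild-type-labelled array. Xcr1, Siglech and Cd209a were below the level. Of 13 listed neutrophil markers 11 were measured and 3 expressed. The sums over all 11 measured, 8 of them below the level, were 1450 on the knockout-labelled array and 1473 on the wild-type-labelled array.

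B cell markers were present, as the cell type label states. Of 13 listed 12 were measured and all 12 were expressed, each higher on the knockout-labelled array by its strongest probe set, with a median of 0.18. Summed intensities were 81270 on the knockout-labelled array and 70514 on the wild-type-labelled array. Over all expressed sets, differences ran from -0.32 to 1.04 for Ighm (8 sets) and from -0.05 to 0.20 for Ebf1 (4 sets). The other markers were higher by every expressed set. Itgb2 was higher on the same array as the B cell markers, and the myeloid and dendritic markers were mostly lower there. Of the lower macrophage and monocyte markers, Cd14, Cd68, Lyz2 and Fcgr1 read only 6.69 to 7.21, close to the level for expression. Csf1r and Tyrobp, also lower, read further above it. The 2 higher markers of that list were Adgre1 at 0.03 and Ccr2 at 0.06. In the dendritic sums Bst2 weighed most, at 11.81 on the knockout-labelled array and 12.12 on the wild-type-labelled array. Zbtb46 and Flt3 were lower too, and Batf3 was higher. In bulk RNA fewer cells of a type and less RNA per cell cannot be told apart. The part of cell composition in the readings of the members was not tested.

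Spi1 encodes PU.1, a transcription factor known in human myeloid cells to bind the promoters of CD11b and CD18. It read 10.18 on the knockout-labelled array and 11.06 on the wild-type-labelled array, a difference of -0.89. Itgb2 lay in the opposite direction at 0.29, and Itgal, Itgam and Itgax lay at -0.03, -0.54 and -0.07, the last pair below the level for expression. These chains therefore did not all lie in the direction of Spi1, and a link between these values was not tested.

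The promoters of 2 members are shown, Itgam because it lay below the level for expression and is a known PU.1 target, and Icam1 because it is known to be induced through NF-kB in activated cells. Both are the 250 bases before the transcript start in RefSeq (GRCm38.p6), Itgam at chr7:128062390-128062639 and Icam1 at chr9:21015690-21015939, both on the plus strand. Capitals mark GAGGAA on either strand in the Itgam stretch, the core of PU.1 sites, and GGAAATTCC on either strand in the Icam1 stretch, the kB element known from the human ICAM1 promoter.
Itgam: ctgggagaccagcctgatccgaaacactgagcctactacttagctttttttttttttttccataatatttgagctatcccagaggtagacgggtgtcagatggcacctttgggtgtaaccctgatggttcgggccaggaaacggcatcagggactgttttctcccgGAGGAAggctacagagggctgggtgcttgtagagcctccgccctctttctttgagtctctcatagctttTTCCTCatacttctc
Icam1: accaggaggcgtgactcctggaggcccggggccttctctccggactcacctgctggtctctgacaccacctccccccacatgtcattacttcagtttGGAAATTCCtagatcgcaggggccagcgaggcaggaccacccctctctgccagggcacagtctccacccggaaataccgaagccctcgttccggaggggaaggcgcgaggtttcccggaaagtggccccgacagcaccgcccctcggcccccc

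The letters GAGGAA stood 2 times in the Itgam stretch, 84 bases before the start on the plus strand and 15 bases before it on the minus strand. They occurred in 3 of the 7 members whose promoter was matched, Itgb1, Itgam and Cd44. The promoters of Itgal and Itgb2 were not matched, so they were not searched. GAGGAA occurred in 23.3% of all 32851 promoter stretches of the same length. GGAAATTCC stood once, 153 bases before the start of Icam1, in 1 of the 7 members and in 0.286% of all stretches. Neither motif overlaps the other. These matches describe the sequence and are not measured binding.

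Icam1, the ligand of LFA-1 and Mac-1, was expressed at nearly the same level on both arrays. Its single probe set, 1424067_at, read 12.23 on the knockout-labelled array and 12.31 on the wild-type-labelled array. The knockout-labelled array was lower by a log2 difference of -0.08, smaller than the yardstick of 0.31. Of all expressed genes 24.9% were at least as low.

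Itga4, the alpha chain CD49d, was represented by 5 probe sets, 4 of them expressed. The strongest, 1436037_at, read 10.62 on the knockout-labelled array and 10.61 on the wild-type-labelled array, a difference of 0.01. The other expressed sets were 1456498_at (8.49 on the knockout-labelled array and 8.14 on the wild-type-labelled array, difference 0.36), 1421194_at (difference 0.07) and 1450155_at (difference 0.11). All 4 pointed to a higher level on the knockout-labelled array, and 1 of them stood apart from the rest. Their differences spanned 0.35, a wider span than in 82.9% of the 521 genes with 4 expressed probe sets. The sign of the strongest probe set turned to -0.02 after quantile normalization and to -0.03 after a loess curve was subtracted. The fifth set, 1427615_at, was below the level for expression, at 3.84 on the knockout-labelled array and 4.03 on the wild-type-labelled array.

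Itgb1, the beta chain CD29 that pairs with Itga4 in VLA-4, was represented by 6 probe sets, 3 of them expressed. The strongest, 1452545_a_at, read 10.21 on the knockout-labelled array and 10.33 on the wild-type-labelled array, a difference of -0.13. The next, 1426918_at, read 10.06 on both arrays, with a log2 difference of -0.0011. The probe set 1427771_x_at, some of whose probes also match other sequences, read 7.58 on the knockout-labelled array and 7.63 on the wild-type-labelled array, a difference of -0.05. The size of the Itgb1 difference thus depended on the probe set. The mean of all 6 sets gave 0.06, because it took in 3 sets below the level for expression, with differences of 0.06, 0.07 and 0.37.

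Itgb7, the beta chain of the gut-homing integrin, had the lowest difference among the expressed members. Its single probe set, 1418741_at, read 7.34 on the knockout-labelled array and 7.52 on the wild-type-labelled array. The difference was -0.19, and 10.5% of all expressed genes were at least as low. Both readings were close to the level for expression, and the gene was left out by the stricter filter at the 75th percentile of levels, 8.84. By their strongest probe sets the alternative partners of Itga4 both lay below 0, Itgb1 at -0.13 and Itgb7 at -0.19. Each was within the yardstick of 0.31, and the next Itgb1 set, 1426918_at, lay at -0.0011.

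Cd44, the receptor for hyaluronan that rises on activated and memory lymphocytes, was represented by 4 probe sets, 3 of them expressed. The strongest, 1423760_at, read 13.25 on the knockout-labelled array and 13.30 on the wild-type-labelled array. The next, 1434376_at, read 13.15 on the knockout-labelled array and 13.21 on the wild-type-labelled array. These sets agreed at -0.06 each. The third, 1452483_a_at, read 11.66 on the knockout-labelled array and 11.85 on the wild-type-labelled array, a difference of -0.18. All 3 expressed sets were lower on the knockout-labelled array, by sizes within the yardstick of 0.31. The fourth, 1443265_at, was below the level for expression at 4.37 on the knockout-labelled array and 4.48 on the wild-type-labelled array.

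Across the members, 13 of the 15 expressed probe sets differed by less than 0.2, and 5 of the 15 were higher and 10 lower on the knockout-labelled array. The other 2 were 1456498_at of Itga4 and the single set of Itgb2. Of the 7 expressed members, 1 was higher and 6 lower after quantile normalization or a loess curve, when Itga4 changed sign. Itgal, Itgam and Itgax lie on mouse chromosome 7, and Itga4 and Cd44 on chromosome 2. The neighbours Itgam and Itgax were both below the level for expression, whereas Itgal was expressed.

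**Figure D2:**
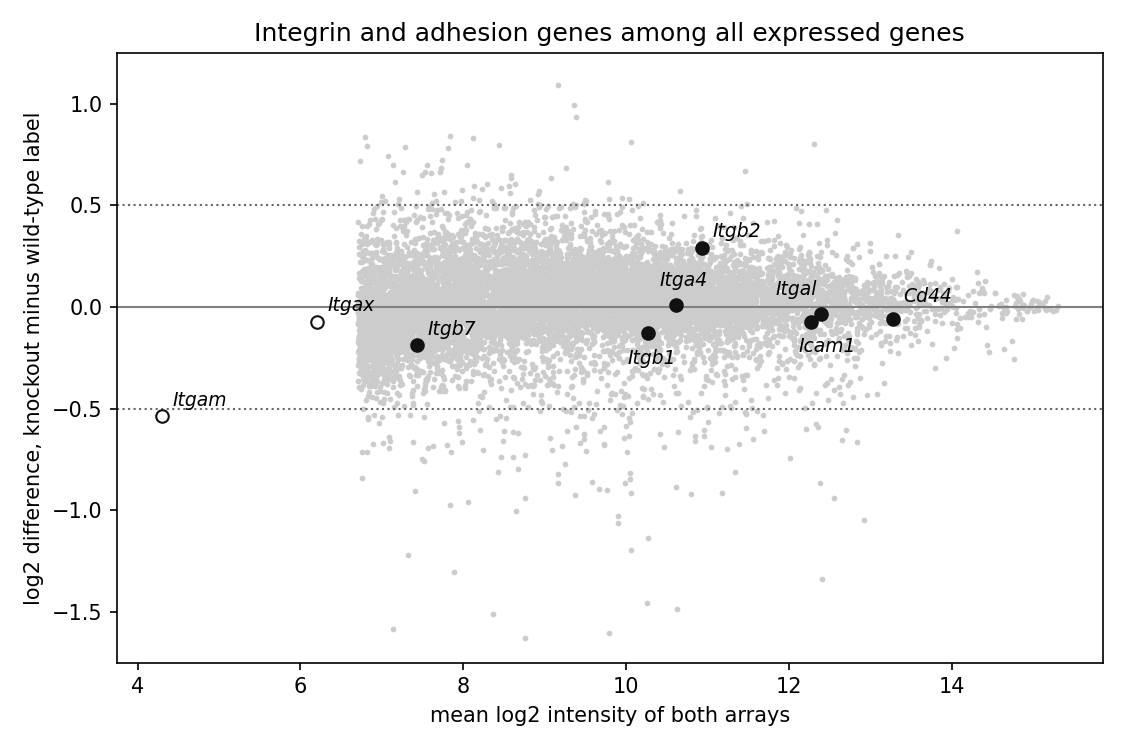
Difference (vertical axis, log2, knockout-labelled array minus wild-type-labelled array) against mean log2 intensity of both arrays (horizontal axis) for the 10717 expressed genes in grey and the 9 members in black, each by its strongest probe set. Open points are Itgam and Itgax, below the level for expression, dotted lines mark 0.5 either way, and 1 grey gene, Mir155hg at 4.25, lies outside the axis. The 7 expressed members lie inside the grey cloud, with Itgb2 the highest at 0.29.

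The other integrin chains were also examined. Of 14 other alpha chains 12 were measured and 6 expressed, 2 higher, 3 lower and 1 equal, from Itga3 at -0.26 to Itga2b at 0.16, with a median of -0.02. Of 5 other beta chains 1 was expressed, Itgb5, at 0.06 by its strongest probe set, 0.25 by its plain _at probe set and 0.28 by the mean of its probe sets. That mean exceeded both of its expressed sets, because it took in probe sets below the level for expression. None of these 7 differed by 0.5 or more. Of 13 ligands, 12 were measured and 3 expressed, from the junctional adhesion molecule gene F11r at -0.40 to Icam2, a further LFA-1 ligand, at 0.14, with a median of -0.04. The sign of this median over 3 genes depended on the setting, at 0.14 with the mean of probe sets or the stricter filter, 0.0047 after a loess curve and -0.13 with plain probe sets. On the knockout-labelled array F11r lay below the level for expression, at 6.54, against 6.95 on the wild-type-labelled array.

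Genes that switch integrins on from inside the cell had a median of 0.01 over 19 expressed of 23 listed, 10 higher and 8 lower. They ran from Tln2, a talin gene, at -0.24 to the vinculin gene Vcl at 0.39. A further list joins genes that carry signals from bound integrins with Cytip and the cytohesin gene Cyth1. Its median was -0.02 over 15 expressed of 22 listed, 6 higher and 9 lower. Its genes ran from Cytip, whose product binds the cytohesins that regulate LFA-1, at -0.46 to the exchange factor gene Vav2 at 0.30. In neither list did a gene differ by 0.5 or more.

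Genes around CD44 and hyaluronan had a median of 0.03 over 10 expressed of 18 listed, 7 higher and 3 lower, from the membrane protease gene Mmp14 at -0.19 to the hyaluronan receptor gene Hmmr at 0.18. Selectins and other adhesion molecules had a median of -0.02 over 14 expressed of 18 listed, 6 higher and 8 lower. This list held 1 gene higher and 1 lower by at least 0.5, where the background shares over expressed genes were 0.681% and 1.31%. Cd2, an adhesion receptor known from T cells and also found on mouse B cells, read 7.86 on the knockout-labelled array and 7.19 on the wild-type-labelled array, a difference of 0.66. Cd9, a tetraspanin that associates with integrins in the membrane, read 9.44 on the knockout-labelled array and 10.03 on the wild-type-labelled array, a difference of -0.59. Of 8 T cell markers 6 were expressed, 4 higher and 2 lower. Among them Thy1, a T cell surface marker, differed by 0.56, the only one at 0.5 or more. The sums over all 8 markers were 1217 on the knockout-labelled array and 1118 on the wild-type-labelled array. The part of T cells in the Cd2 reading was not tested.

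**Figure D3:**
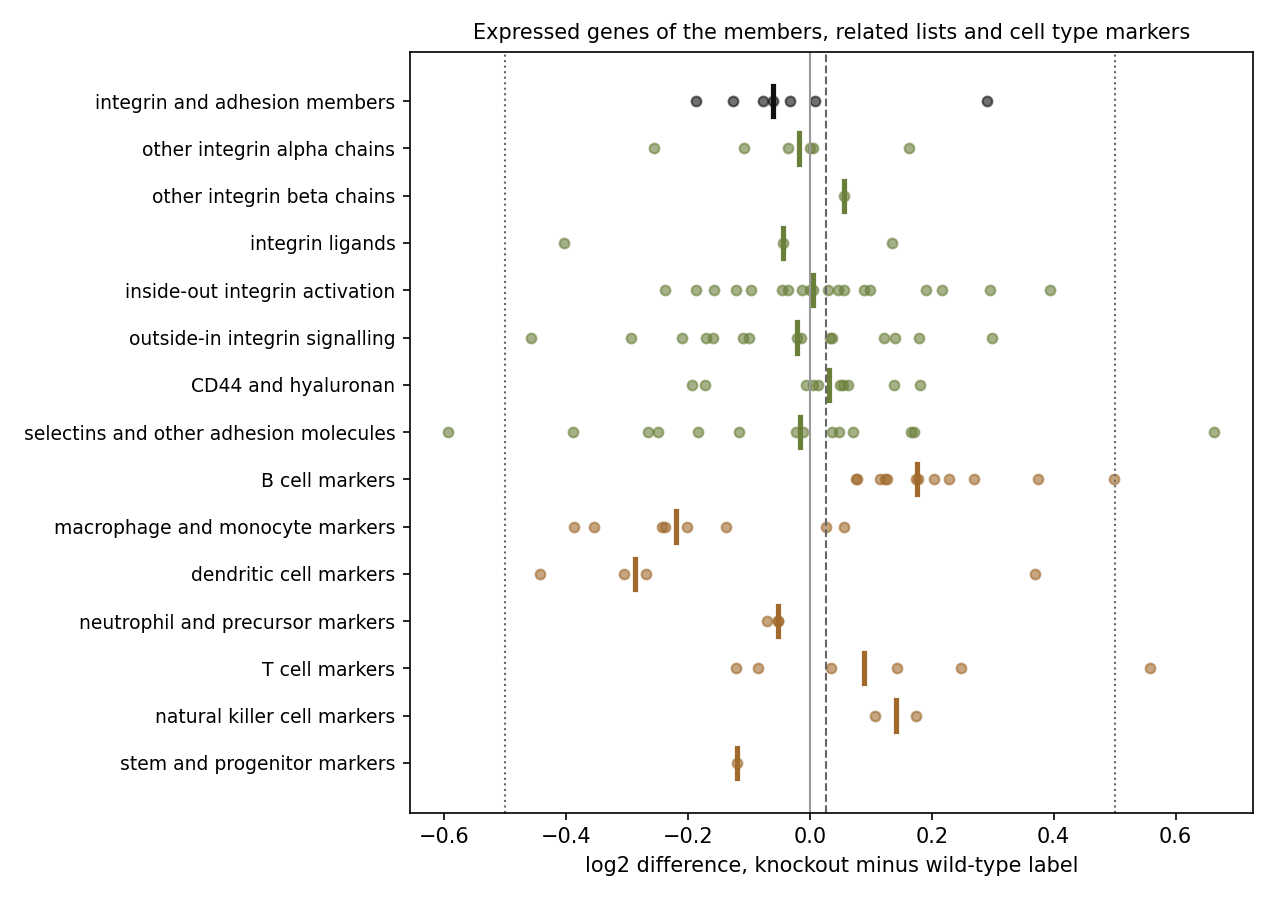
Log2 differences (knockout-labelled array minus wild-type-labelled array, horizontal axis) of expressed genes, 1 point per gene, for the 7 expressed members (top row), 7 related gene lists and 7 lists of cell type markers. Short vertical bars are list medians, the dashed line is the median of all expressed genes, 0.03, and dotted lines mark 0.5 either way. The members' median lies at -0.06, the B cell markers' at 0.18 and the macrophage and monocyte markers' at -0.22.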

How the data were processed

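RNA was extracted with Trizol and labelled as biotinylated cRNA with the Affymetrix 3′ IVT Express kit, per the labels' protocols. The authors deposited log2 intensities for 45101 probe sets on 2 arrays. That unit was read from the values, and no summarisation or normalization method is given in the sources used here. Once sorted, the columns were within 0.063 of each other, so a difference in total RNA per cell would not be visible. Probe sets were named from the platform annotation: 34945 with a single gene, 932 with several, 9160 with none and 64 controls. Through Entrez numbers 34741 matched RefSeq genes of GRCm38.p6, and 0 symbols changed.

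Each gene took its probe set with the highest mean. No test was possible with 1 array per label, which also limits the precision. The code that counts genes past 0.5 log2 was run on simulated data first, which tests the counting and not the choice of 0.5. Members and lists were chosen with earlier results of these data known. Named genes are all members, Mir155hg, Spi1, and of each related list the highest, the lowest and those at 0.5 or more; cell type markers are named as examples. Promoters were matched for 7 of 9 members, all but Itgal and Itgb2. The alternatives were the mean of probe sets, plain _at probe sets only, quantile normalization, a loess curve (span 0.3), keeping all genes whatever their level, and a stricter filter (75th percentile of levels). Pseudocounts were planned for linear values only and were not needed. The work used matplotlib 3.10.9, statsmodels 0.14.6, NumPy 2.4.6, pandas 2.3.3 and Python 3.11.15.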

Additional observations from a re-analysis of the deposited data

How the results depend on the processing

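No paired analysis was possible because each label has 1 array, and no array could be left out. Of 51 recomputed differences of single members, 49 moved by less than 0.08, the median gap between probe sets of a gene. The others were Itgb1 at 0.055 with the mean of probe sets and at -0.0011 with plain _at sets only. Many of the 51 could not move. The filters leave a gene's own difference unchanged, and so does averaging for a gene with a single probe set. Plain _at sets change a gene only where its strongest set is of another kind, as for Itgb1. Quantile normalization could move a member by at most 0.0633, the largest gap between the sorted columns. It could therefore not reach 0.08. The loess curve could move every member, and each moved by less than 0.08. The members' median stayed between -0.08 and -0.03 over 6 alternatives. Their count lower by 0.5 or more was 1 with no filter, which let in Itgam, and 0 otherwise. Itgb7, Itgam and Itgax gave no value under the stricter filter. With the mean of probe sets and with plain sets, the other beta chains, of which Itgb5 alone was expressed, had a median of 0.28 and 0.25. The integrin ligands had medians of 0.14 (mean of probe sets, and filter at the 75th percentile) and -0.13 (plain sets). Among all expressed genes, 45 were higher by 0.5 or more with the mean of probe sets and 24 with the stricter filter, and 252 were lower with no filter and 85 with the stricter filter. Readings under 6.71, as for Itgam and Itgax, call for caution, though 6.71 is the median of probe sets and not a measured background.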

Other observations

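Stem and progenitor markers bear on the growth protocol, which names progenitors. Of 8 listed 6 were measured and 1 expressed, Hoxa9, at 7.34 on the knockout-labelled array and 7.46 on the wild-type-labelled array, while Kit, Cd34, Gata2, Meis1 and Procr were below the level for expression. Of 7 natural killer cell markers 6 were measured and 2 expressed, Gzma at 0.17 and Nkg7 at 0.11.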
